A study of Rattus norvegicus with 6 samples.

Results

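Genes of the interferon system were followed in cultured rat nucleus pulposus cells after serum withdrawal. The set was a list of 43 gene symbols chosen for their place in the pathway: receptor chains, transcription factors, RNA sensors and interferon-stimulated genes. Of these, 41 had a row among the 17093 genes of the deposited tables; Oas2 and Oas3 were matched to no row and are not analysed here. The cells were primary cells from the intervertebral disc of male rats at passages 3 to 6. The 3 serum-starved libraries came from cells in medium without fetal bovine serum, and the 3 control libraries from cells in DMEM-F12 with 10% serum. The time given is 48 h for both groups, and the labels name no genetic change, added interferon or virus. Whether the libraries within a group derive from different rats or dishes is not stated, so the p-values reflect the spread among these samples alone, which may be technical.

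Cells release type I interferons when receptors for foreign or misplaced nucleic acid, such as the RNA helicases RIG-I and MDA5, signal through the adaptor MAVS to the factors IRF3 and IRF7. Interferons bind paired receptor chains and act through JAK kinases; type I interferons act through a complex that holds STAT2 and IRF9 and binds the interferon-stimulated response element, whereas the response to interferon gamma runs through the gamma-activated site. Many interferon-stimulated genes are also expressed at a low level in cells that meet no added interferon, and several of the pathway's own parts are such genes.

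The promoters of the members show where these elements lie. RefSeq windows of the GRCr8 rat assembly, from 250 bases before to 50 bases after the start site, were held for 33 of the 41 genes, which leaves out Usp18, Ifit2, Irf2, Ddx58, Dhx58, Isg15, Ifit1 and Mx2 from every motif count. The core of the response element, GAAANNGAA searched on both strands, was found in 17 of the 33 windows (51.5%), against 9.71% of all 33469 windows of the same length. The core of the gamma-activated site, TTCNNNGAA, which reads the same on both strands, was found in 9 of 33 windows (27.3%), against 8.87% of all windows. The searches can overlap at their GAA ends, as they do in Samd9. A match is a description of these letters, not evidence of binding, and windows without one say nothing of the factor. The stretches below run 5′ to 3′ up to the base before the start site, 200 bases for Irf8, 150 for Bst2 and 120 for the rest. Gbp2, Ifi44, Samd9 and Xaf1 rose in serum-starved cells, Isg20 and Irf8 fell, and Oas1a and Bst2 were near 0 in every library. Capitals mark the response element core on either strand, and in Irf8 the gamma-activated site core.
Gbp2, chr2:234005607-234005726, plus strand: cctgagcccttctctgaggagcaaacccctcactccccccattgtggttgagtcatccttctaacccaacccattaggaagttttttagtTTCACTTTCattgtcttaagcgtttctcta
Ifi44, chr2:243303841-243303960, minus strand: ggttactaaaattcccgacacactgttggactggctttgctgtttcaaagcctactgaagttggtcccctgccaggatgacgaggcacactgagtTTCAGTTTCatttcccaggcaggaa
Samd9, chr4:32138959-32139078, minus strand: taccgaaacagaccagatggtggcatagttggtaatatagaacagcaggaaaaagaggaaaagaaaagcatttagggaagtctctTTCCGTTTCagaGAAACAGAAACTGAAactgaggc
Xaf1, chr10:57415815-57415934, plus strand: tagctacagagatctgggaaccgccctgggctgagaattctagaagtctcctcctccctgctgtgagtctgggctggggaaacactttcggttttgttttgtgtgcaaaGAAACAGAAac
Isg20, chr1:142239939-142240058, plus strand: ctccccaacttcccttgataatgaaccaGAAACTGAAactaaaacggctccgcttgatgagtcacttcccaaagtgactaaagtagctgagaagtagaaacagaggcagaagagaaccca
Irf8, chr19:65699084-65699283, plus strand: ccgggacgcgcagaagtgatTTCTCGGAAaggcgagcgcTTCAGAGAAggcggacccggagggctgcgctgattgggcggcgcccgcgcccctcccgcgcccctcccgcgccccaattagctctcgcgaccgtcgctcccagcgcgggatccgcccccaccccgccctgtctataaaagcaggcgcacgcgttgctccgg
Oas1a, chr12:41330346-41330465, plus strand: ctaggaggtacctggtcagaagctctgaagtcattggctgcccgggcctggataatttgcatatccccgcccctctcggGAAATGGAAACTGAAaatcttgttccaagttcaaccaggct
Bst2, chr16:18254968-18255117, minus strand: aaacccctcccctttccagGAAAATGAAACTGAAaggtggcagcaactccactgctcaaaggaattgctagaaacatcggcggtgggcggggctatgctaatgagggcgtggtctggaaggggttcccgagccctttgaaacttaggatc

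In Gbp2 the core lay on the opposite strand, at positions -30 to -22 from the start site. Samd9 held 3 cores, the first from position -35 on, while in Isg20, which fell, the core began at position -92. Oas1a and Bst2 each carried a pair of overlapping cores, yet neither gene exceeded a value of 0.2. Among the 17 genes with the response element core, 12 were tested, of which 9 rose, 1 fell and 2 did not pass, and 5 were too low to test. Of the 16 without it, 14 were tested, of which 7 rose, 1 fell and 6 did not pass. Gbp5, which rose and holds this core, passed the filter through the starved group alone. Of the 9 genes with the gamma-activated site core, 6 were tested, of which 3 rose, 1 fell and 2 did not pass. Of the 24 genes without that core, 20 were tested, of which 13 rose, 1 fell and 6 did not pass. Among all tested genes 31.7% were called higher and 29.4% lower. Usp18, Ifit2, Irf2 and Ddx58 were called but have no window, so they are in none of these motif counts. Whether either core bears on these calls was not tested.

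Values are the deposited ones, treated as FPKM, which are scaled for transcript length. The unit is not stated, and levels of different genes can be set side by side only if it is FPKM. The total of all values was 447788 to 473452 for serum-starved libraries, against 522165 to 530095 for controls, and the depth in reads is unknown. Differences are log2 changes (serum-starved minus control) of the value plus a pseudocount of 1, which understates the change of low genes. They were tested with limma across all genes reaching 1 in 3 or more libraries, and a gene is said to rise or fall where the Benjamini-Hochberg adjusted p did not exceed 0.05. In bulk samples, fewer cells of a type and less RNA per cell cannot be told apart. Nucleus pulposus cells are marked by aggrecan and keratins: of 11 matched markers, 5 reached 1 in all libraries, Krt18 was listed at 0 in all 6, and the list summed to 101 to 112 in serum-starved and 126 to 180 in control libraries. Of its tested members, Acan, Sox9, Krt8, Foxf1 and Car12 fell, Pax1 and Car3 rose, and Cdh2 did not pass. Acan, the aggrecan gene, had 3.27, 2.67 and 3.22 in serum-starved cells, against 82.6, 103 and 47.2 in control cells. Car3 averaged 26.1 in serum-starved and 1.03 in control cells. Car12 lay below 1 in all serum-starved libraries, so it passed the filter through the control group alone and had to be lower under starvation. Fibroblast and annulus markers summed to 3900 to 4156 in serum-starved and 3019 to 3471 in control libraries, mostly Col1a1. Of these, Col1a1, Col3a1, Mkx, Pdgfra, Dcn and Lum rose, Col1a2 and Scx did not pass, and only Thy1 fell. Thy1 averaged 297 in serum-starved and 921 in control cells, and Dcn averaged 239.8 in serum-starved and 26.65 in control cells. Of 4 matched lymphocyte markers 0 reached 1, and their sum was at most 0.08 in serum-starved and 0.12 in control libraries. Of 6 matched endothelial markers 1 (Egfl7) reached 1 in all libraries, with list sums of 6.39 to 7.05 in serum-starved and 8.61 to 11.6 in control libraries. Of 8 matched macrophage and leukocyte markers 2 did so, and the list summed to 12.5 to 16.2 in serum-starved and 24.3 to 30.5 in control libraries, mostly Cd14.

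Most tested interferon genes were modestly higher in serum-starved cells, while Usp18, a brake of the pathway, was much lower. Among the 31 that could be tested, 19 rose (61.3%) and 3 fell (9.68%), and 9 did not pass. Among all 11493 tested genes, 61.1% were called, 31.7% higher and 29.4% lower, so the share that rose lay above the share in all genes and the share that fell lay below it. The median log2 change was 0.32 over the 31 genes and 0.03 over all tested genes. Gbp2 and Usp18 were the 2 called genes that moved by at least 1 on this log2 scale. That count depends on the pseudocount: with 0.1, Samd9 (1.42), Parp9 (1.04) and Irf8 (-1.10) passed 1 too, and 7 called genes differed at least 2-fold by the ratio of means. With the pseudocount of 1, the 19 risers had a median of 0.49, against 0.50 for all 3640 genes that rose. After scaling every library to the same total, the median over all genes was 0.20, and 22 interferon genes rose and 3 fell beside 46.1% of all genes higher and 20.2% lower.

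**Figure D1:**
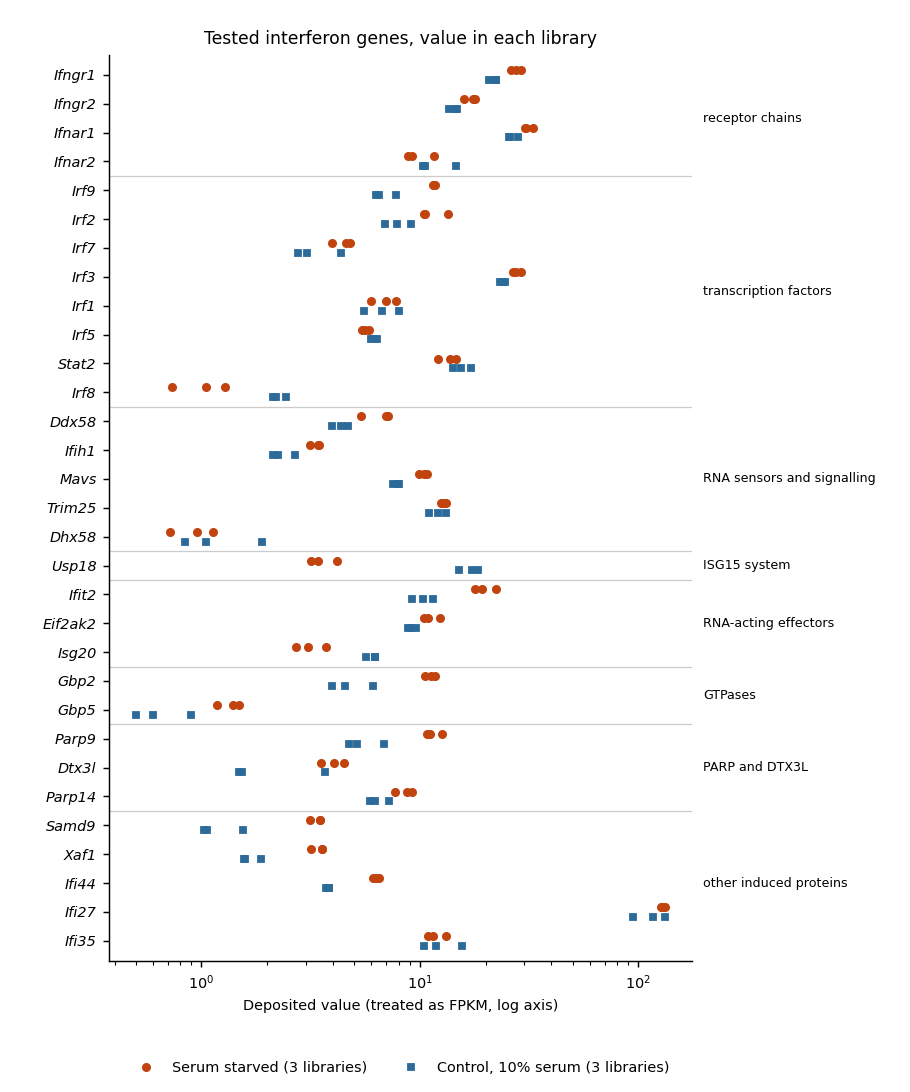
Deposited value (treated as FPKM, log axis) of the 31 tested interferon genes in each library, with 3 serum-starved libraries as circles above 3 control libraries as squares, grouped by role. Usp18, Isg20, Irf8 and, by little, Irf5 lie lower in all serum-starved libraries than in any control, while 18 genes lie higher.

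Groups did not overlap for 18 tested genes that were higher in serum-starved libraries and 4 that were lower, where 35.7% and 32.5% of all tested genes did the same. By level, Ifi27 led in both groups, at 129 ± 2.94 in serum-starved and 114 ± 19.1 in control cells (SD, n = 3 each), followed by the receptor chain gene Ifnar1. Irf3 and Ifngr1 came next and overlapped in serum-starved cells, at 27.7 ± 1.15 and 27.5 ± 1.36, but were apart in control cells, at 24.0 ± 0.580 and 21.8 ± 0.990. Ifit2 was at place 5 in serum-starved and place 11 in control cells, while Usp18 was at place 24 and place 5. In serum-starved cells each gene from Stat2 at place 7 to Gbp2 at place 14 overlapped the gene in the next place, as did Usp18 at place 24. In control cells the same held for each gene from Usp18 at place 5 to Gbp2 at place 21, so those places are not resolved.

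**Figure D2:**
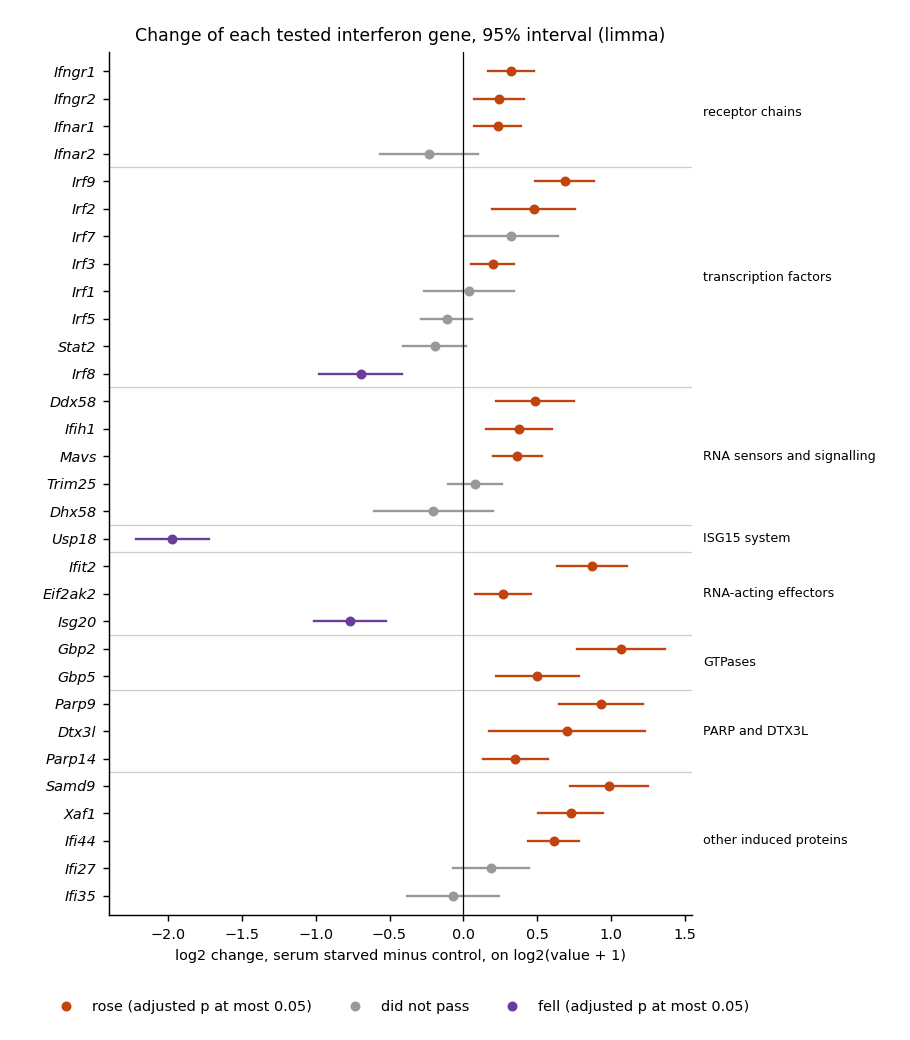
Log2 change of value + 1 (serum-starved minus control) of each tested interferon gene, with its 95% interval from limma, grouped by role; orange rose, purple fell, grey did not pass. Usp18 stands at -1.97 and the largest rise, Gbp2, at 1.07.

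Among the receptor chains, 3 of 4 rose, each by less than 1.3-fold. Ifngr1 (gene ID 116465), the ligand-binding chain for interferon gamma, had 28.9, 27.4 and 26.2 in serum-starved cells, against 20.6, 22.3 and 22.4 in control cells, with every starved library above every control. Its log2 change was 0.32 ± 0.0683 (SE; limma, Benjamini-Hochberg adjusted p = 0.00359). The partner chain Ifngr2 averaged 17.1 ± 1.05 and 14.3 ± 0.679, and Ifnar1, one of the chains for type I interferon, 31.3 ± 1.48 and 26.5 ± 1.504 in serum-starved and control cells (SD, n = 3 each). Both rose, with limma adjusted p = 0.0211 for Ifngr2 and 0.0181 for Ifnar1. Neither call held without serum-starved replicate 2 or control replicate 2 (adjusted p between 0.0660 and 0.0840), and the same was true for Ifngr2 without serum-starved replicate 1 (0.0632) and for Ifnar1 without control replicate 1 (0.0554). Ifnar2, the other type I chain, did not pass, with a log2 change of -0.23 and a 95% interval of -0.57 to 0.10. It had 9.19, 11.7 and 8.78 in serum-starved cells and 10.4, 10.6 and 14.6 in control cells, highest in control replicate 3. In the GRCr8 annotation Ifnar1 and Ifngr2 are neighbouring protein-coding genes.

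The transcription factors split. Irf9 (gene ID 305896), the DNA-binding part of the type I interferon complex, had 11.5, 11.6 and 11.7 in serum-starved cells, against 6.49, 6.27 and 7.77 in control cells. The starved libraries were nearly equal and all above the controls, with a log2 change of 0.69 ± 0.0881 (limma, adjusted p = 0.000247). Its partner Stat2 went the other way without passing, at 13.5 ± 1.26 in serum-starved and 15.5 ± 1.42 in control cells (SD, n = 3 each; 95% interval of the log2 change -0.41 to 0.02). Irf2, which competes with IRF1 for its sites, rose 1.44-fold, with 10.5, 13.5 and 10.4 in serum-starved and 6.94, 7.85 and 9.10 in control cells (adjusted p = 0.00969). Irf3, the factor that switches on interferon genes after sensing, rose 1.15-fold to 27.7 ± 1.15 in serum-starved cells, against 24.0 ± 0.580 in control cells (adjusted p = 0.0232). That call was lost when serum-starved library 1 or 3, or control library 1 or 2, was left out (adjusted p between 0.0526 and 0.0964) and under median-of-ratios scaling (0.0599).

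Irf7, which amplifies interferon production and is itself interferon-induced, did not pass: 3.95, 4.78 and 4.59 in serum-starved cells lay partly among 3.04, 2.78 and 4.34 in control cells (adjusted p = 0.0720). Without control replicate 3 its log2 change was 0.47 with limma adjusted p = 0.00637. With equal totals it was 0.48 (adjusted p = 0.0185), where the median over all genes was 0.20. Irf1, induced by interferon gamma, did not pass, at 6.91 ± 0.878 in serum-starved and 6.73 ± 1.23 in control cells (SD, n = 3 each; 95% interval of the log2 change -0.27 to 0.34). Irf5 was slightly lower in every starved library, at 5.44 to 5.85 against 5.98 to 6.37, but did not pass (adjusted p = 0.216). Irf8 (gene ID 292060), a factor best known from macrophages and dendritic cells, fell 2.21-fold. It had 1.28, 0.73 and 1.05 in serum-starved cells, against 2.19, 2.13 and 2.44 in control cells, a log2 change of -0.70 ± 0.122 (adjusted p = 0.00138). Among the 8 macrophage and leukocyte markers 1 fell and 2 rose. Cd14 fell, with 7.17 to 10.7 in serum-starved and 21.8 to 27.4 in control cells. Cd68 rose, with 2.77 to 3.97 in serum-starved and 1.47 to 2.4 in control cells. Laptm5 had 1.63 to 1.8 in serum-starved and 0.22 to 0.56 in control cells; its controls all lay below 1, so it passed the filter through the starved group alone and had to be higher there. Csf1r stayed at or below 0.25 in every library and Adgre1 at or below 0.02. The part of such cells in the fall of Irf8 was not tested.

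Of the 5 RNA sensing and signalling genes, 3 rose and 2 did not pass. Ddx58 (gene ID 297989), which encodes RIG-I and is named Rig1 in RefSeq, had 5.38, 6.99 and 7.17 in serum-starved cells, against 4.34, 3.97 and 4.71 in control cells. Its log2 change was 0.49 ± 0.114 (adjusted p = 0.00605). Ifih1, which encodes MDA5, had 3.42, 3.47 and 3.13 in serum-starved and 2.25, 2.12 and 2.67 in control cells (log2 change 0.38, adjusted p = 0.00935). Mavs, the adaptor on mitochondria below both sensors, rose 1.33-fold to 10.4 ± 0.458, against 7.81 ± 0.266 in control cells (SD, n = 3 each; adjusted p = 0.00243). Groups of all 3 genes were apart. Trim25, a ubiquitin ligase for RIG-I, did not pass as deposited (log2 change 0.08, interval -0.10 to 0.26). With equal totals it rose by 0.26 (limma adjusted p = 0.0262), close to the median of 0.20 over all genes under that scaling. Dhx58, the helicase LGP2 that tunes the other sensors, also did not pass: it had 0.95, 0.72 and 1.13 in serum-starved cells and 0.84, 1.05 and 1.89 in control cells.

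The ISG15 system held the largest change. Usp18 (gene ID 312688) encodes the protease that removes ISG15 from proteins and, bound to IFNAR2, damps the type I receptor. It had 4.17, 3.40 and 3.17 in serum-starved cells, against 18.5, 17.2 and 15.1 in control cells, 4.73-fold lower with no overlap. The log2 change was -1.97 ± 0.109 (limma, adjusted p = 2.29e-06), and it lay between -2.22 and -1.81 over the 14 alternatives run. Isg15 itself, the ubiquitin-like tag, was near the filter and was not tested, with 0.78, 1.09 and 0.83 in serum-starved and 1.04, 0.45 and 0.71 in control cells. Of the enzymes that attach it, Ube2l6 fell to 7.05 ± 0.544 in serum-starved cells, against 9.21 ± 0.9 in control cells (adjusted p = 0.0121). Uba7 was just above 1 in 1 library and was not tested. It was higher in every starved library, at 0.98, 0.9 and 1.01 against 0.44, 0.47 and 0.55 in control cells. With no filter it passed (limma adjusted p = 0.00124).

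Effectors that act on RNA went in both directions. Ifit2 (gene ID 294091), a protein of the IFIT family that binds RNA, had 17.9, 22.2 and 19.3 in serum-starved cells, against 11.5, 10.4 and 9.19 in control cells (log2 change 0.87 ± 0.104, adjusted p = 0.000158). Its neighbour Ifit3 was below 1 in all libraries and lower in serum-starved cells, at 0.22, 0.24 and 0.13 against 0.54, 0.38 and 0.75. Ifit1, of the same family, was at or below 0.07. Eif2ak2, the kinase PKR that stops translation on double-stranded RNA, rose 1.23-fold (adjusted p = 0.0215), with 10.9, 12.4 and 10.5 in serum-starved and 9.57, 8.79 and 9.15 in control cells. That call was lost without serum-starved replicate 2 (adjusted p = 0.0749) or control replicate 2 (0.0755). Isg20 (gene ID 293052), an RNA exonuclease, fell: it had 2.70, 3.70 and 3.06 in serum-starved cells, against 6.21, 5.67 and 6.26 in control cells. The groups were apart, with a log2 change of -0.77 ± 0.106 (adjusted p = 0.000363).

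Both tested genes of guanylate-binding proteins, GTPases that attack pathogen membranes, rose. Gbp2 (gene ID 171164) had 10.6, 11.8 and 11.2 in serum-starved cells, against 4.53, 3.96 and 6.12 in control cells. Its log2 change of 1.07 ± 0.13 was the largest rise among the 31 genes (adjusted p = 0.000183). Gbp5 had 1.48, 1.39 and 1.18 in serum-starved cells, against 0.6, 0.5 and 0.9 in control cells (log2 change 0.50, adjusted p = 0.00745). Its controls all lay below 1, so the gene passed the filter through the starved group alone and had to be higher there. Both belong to a family of near-identical copies, and the treatment of shared reads is not stated. Of the other family of antiviral GTPases, the Mx proteins, Mx1 was listed at 0 in all 6 libraries and Mx2 reached 0.08 in serum-starved and 0.28 in control cells.

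Parp9, Dtx3l and Parp14 lie next to each other in GRCr8, and all 3 rose. PARP9 and the ubiquitin ligase DTX3L form a complex, and PARP14 is a mono-ADP-ribosyltransferase. The start sites of Parp9 and Dtx3l lie 1214 bases apart on opposite strands of that assembly. Parp9 (gene ID 303905) had 10.7, 11.1 and 12.6 in serum-starved cells, against 4.74, 5.17 and 6.85 in control cells (log2 change 0.93 ± 0.125, adjusted p = 0.000312). Dtx3l had 4.51, 4.06 and 3.54 in serum-starved cells, against 1.53, 1.48 and 3.67 in control cells. Its groups overlapped at control replicate 3, and the interval of its log2 change of 0.70 was wide, at 0.18 to 1.23 (adjusted p = 0.0270). The call was lost when library 1 or 2 of either group was left out (adjusted p between 0.0660 and 0.0882) and with no filter (0.0619), whereas without control replicate 3 the log2 change was 1.00 (adjusted p = 0.000285). Parp14 rose 1.32-fold, with 7.73, 9.17 and 8.73 in serum-starved and 5.92, 6.25 and 7.25 in control cells (adjusted p = 0.0128).

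Of the remaining induced genes, Samd9, Xaf1 and Ifi44 rose. Samd9 (gene ID 500011), an antiviral and growth-restraining protein, had 3.13, 3.50 and 3.50 in serum-starved cells, against 1.03, 1.06 and 1.55 in control cells, 2.78-fold higher and the largest ratio of means among the called genes that rose (log2 change 0.99 ± 0.115, adjusted p = 0.000144). Xaf1, which binds the apoptosis inhibitor XIAP, had 3.16, 3.55 and 3.58 in serum-starved cells, against 1.88, 1.59 and 1.56 in control cells (log2 change 0.73, adjusted p = 0.000277). Ifi44, an antiviral protein of the cytoplasm, was steady within each group, with 6.32, 6.53 and 6.12 in serum-starved and 3.82, 3.72 and 3.83 in control cells (adjusted p = 0.000192). Its neighbour Ifi44l, below the filter, was also higher in every starved library, at 0.71, 0.64 and 0.5 against 0.3, 0.33 and 0.31. Ifi27, a small membrane protein of a multi-copy family, did not pass: 129, 127 and 133 in serum-starved cells faced 94.2, 117 and 132 in control cells. It passed without control replicate 3 (limma adjusted p = 0.0299), with equal totals (0.0152) and after quantile normalization (0.0240). With equal totals the log2 change of Ifi27 was 0.38, where the median over all genes was 0.20. Ifi35, a partner of the signalling protein NMI, had 11.5, 13.2 and 10.9 in serum-starved and 11.9, 10.5 and 15.5 in control cells and did not pass.

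**Figure D3:**
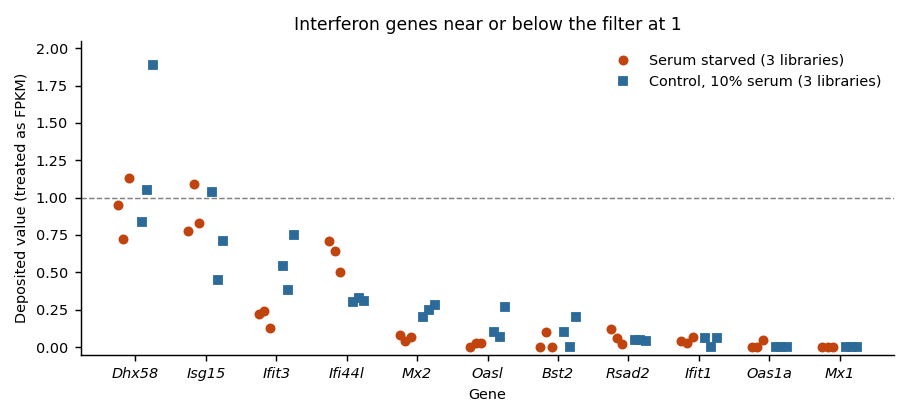
Deposited value (treated as FPKM) of the 10 untested interferon genes and of Dhx58 in each library, with serum-starved libraries as circles left of control libraries as squares; the dashed line is the filter at 1. Mx2, Ifit3 and Oasl are lower and Ifi44l higher in every serum-starved library, all below 1.

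Of the 41 genes, 9 were below 1 in all libraries: Ifit1, Ifit3, Mx1, Mx2, Oas1a, Oasl, Rsad2, Bst2 and Ifi44l. Rsad2, the antiviral enzyme viperin, had 0.12, 0.06 and 0.02 in serum-starved and 0.05, 0.05 and 0.04 in control cells. Bst2, the virus tether tetherin, reached 0.1 in serum-starved and 0.2 in control cells, and Oas1a, a sensor that makes 2′-5′ oligoadenylate, was listed at 0 in all libraries but serum-starved replicate 3, at 0.05. A value at or near 0 can be a failed estimate in these tables. Hprt1, a gene that every cell uses, had 12.4, 10.9 and 8.59 in serum-starved cells, against 0.15, 0 and 0 in control cells, so such values can also differ between the groups. Among the untested genes, Ifi44l was higher, and Ifit3, Mx2 and Oasl (the last at 0, 0.03 and 0.03 against 0.1, 0.07 and 0.27) were lower, in every starved library. Of 5191 genes below the filter with a value above 0 somewhere, 15.3% were higher and 9.3% lower in this way. With no filter, Ifit3 (adjusted p = 0.0140), Mx2 (0.00223) and Ifi44l (0.00538) passed and Oasl (0.0797) did not.

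**Figure D4:**
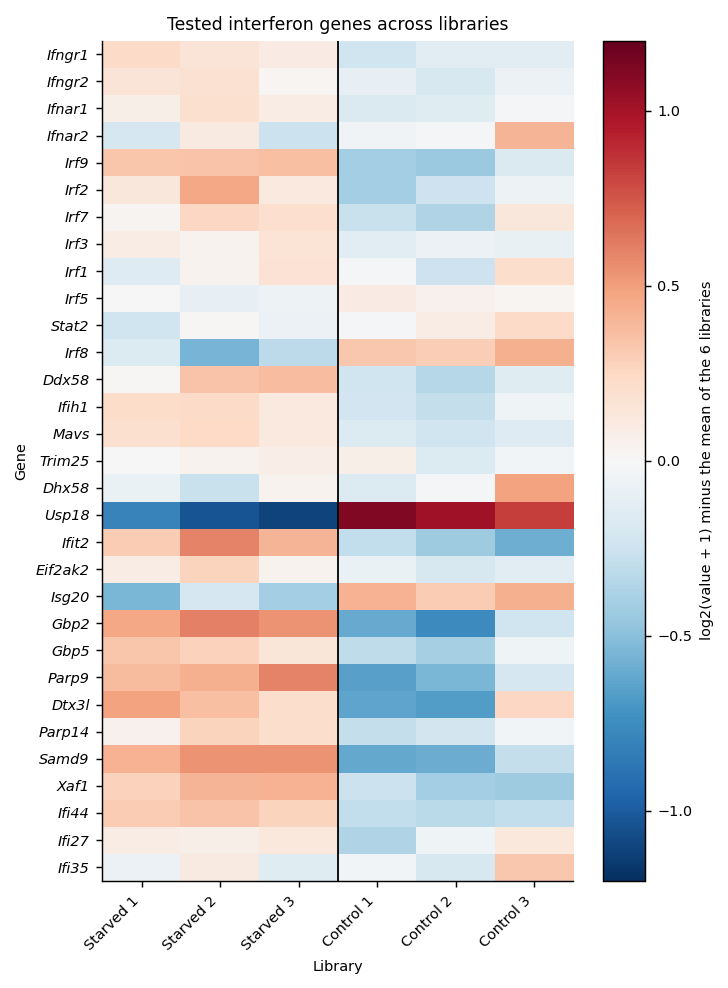
Heat map of the 31 tested interferon genes in the 6 libraries, coloured by log2(value + 1) minus the gene's mean over the libraries. Control replicate 3 is the highest of the 3 controls for 24 genes, and the serum-starved libraries are redder than the controls for most genes outside Usp18, Isg20 and Irf8.

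The control libraries were not alike for these genes. Control replicate 3 was the highest of the controls for 24 of the 31 tested genes (77.4%), control replicate 1 for 6 and control replicate 2 for 1, while control replicate 3 was highest for 37.4% of all tested genes. Summed over the 41 genes, values came to 423, 444 and 431 in serum-starved cells, against 347, 363 and 410 in control cells. Without control replicate 3, 21 genes rose and 3 fell. With any other single library left out, the number that rose was between 14 and 17, lowest without serum-starved replicate 2 or control replicate 2, and 3 fell in each case. Calls also dropped over all genes: the share called higher was then between 26.2% and 30.1%, and the share called lower between 24.9% and 29.1%. With all 6 libraries these shares were 31.7% and 29.4%, and without control replicate 3 they were 31.8% and 27.7%.

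Genes around the members were read from lists of the same pathway. Of 12 interferon ligand symbols, 2 genes had a row, Ifna5 and Ifne. Ifna5 was listed at 0 in all libraries except control replicate 3, at 0.07, and Ifne was between 0.26 and 0.8 in serum-starved and between 0.54 and 0.71 in control cells. No ligand gene was therefore tested.

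Of 21 tested JAK-STAT transducers and brakes, 6 rose, 5 fell and 10 did not pass; their median log2 change was 0.02. The called share, 52.4%, was below the 61.1% of all tested genes. Socs3, which blocks JAK kinases below cytokine receptors, fell the most in this list (log2 change -2.03 ± 0.223, limma adjusted p = 0.000105). It had 8.19, 12.0 and 8.77 in serum-starved cells, against 36.4, 33.2 and 61.1 in control cells. Ptpn1, a phosphatase for JAK2 and TYK2, fell 2.69-fold to 20.8 ± 0.984, against 56.0 ± 3.19 in control cells (SD, n = 3 each; adjusted p = 1.36e-06). Irf2bp2, a corepressor that binds IRF2, fell 2.64-fold (adjusted p = 3.49e-06), while Pias3, an inhibitor of STAT3, rose 1.61-fold (adjusted p = 0.000137). Socs1, the brake that interferon induces, did not pass, at 0.8 to 1.34 in serum-starved and 1.28 to 1.41 in control cells (adjusted p = 0.152). In the same list Cish and Pias2 fell, while Ptpn2, Ptpn11, Pias1 and Pias4 did not pass (log2 changes between -0.06 and 0.10). Jak1, a kinase bound to interferon receptors, rose 1.22-fold (adjusted p = 0.00237), with 79.5, 77.1 and 78.8 in serum-starved and 65.4, 64.1 and 63.6 in control cells.

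**Figure D5:**
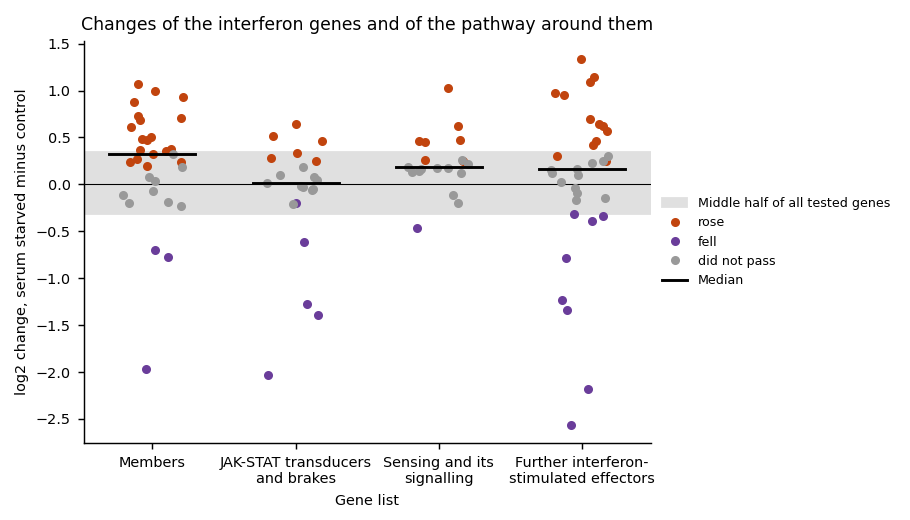
Log2 change, serum-starved minus control, of the tested interferon genes (Members) and of 3 lists of genes around them, 1 point per gene, with the median as a black line; the grey band spans the quartiles of all tested genes. Medians are 0.32, 0.02, 0.18 and 0.16 from left to right.

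A list of sensors upstream of interferon and the proteins that signal below them had 19 tested genes, of which 7 rose, 1 fell and 11 did not pass (median 0.18). The called share, 42.1%, was below the 61.1% of all tested genes. Tmem173, which encodes the DNA-sensing adaptor STING, rose 2.65-fold, with 4.31, 4.22 and 5.35 in serum-starved cells, against 1.73, 1.71 and 1.80 in control cells (log2 change 1.03 ± 0.102, adjusted p = 5.91e-05). Cgas, the enzyme that feeds STING, was not tested and was lower in every starved library, at 0.45, 0.45 and 0.39 against 1.34, 0.85 and 1.09. Tlr4, a receptor for bacterial lipopolysaccharide, rose 1.61-fold (adjusted p = 0.000388), the RNA-sensing receptor gene Tlr3 1.47-fold (0.00153) and Adar, an RNA-editing enzyme, 1.44-fold (0.00193). With equal totals, 16 of these 19 genes changed, beside 66.4% of all tested genes.

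Of 33 tested further interferon-stimulated effectors, 13 rose, 8 fell and 12 did not pass (median 0.16). The called share, 63.6%, was near the 61.1% of all tested genes. The Schlafen genes divided: Slfn4 fell 9.43-fold, with 1.39, 1.56 and 1.32 in serum-starved cells, against 15.3, 13.5 and 11.5 in control cells (adjusted p = 5.69e-07), and Slfn13 fell 2.46-fold, whereas Slfn5 rose 2.73-fold (2.03e-05). Of the IFITM family, Ifitm1 rose, with 3.18, 2.74 and 3.51 in serum-starved and 0.4, 0.45 and 1.16 in control cells (log2 change 1.34, limma adjusted p = 0.000263). Only 1 control reached 1, so Ifitm1 passed the filter through the starved group, where it is high. Ifitm2 rose to 336 ± 7.49, against 228 ± 42.8 in control cells (adjusted p = 0.00341). Ifitm3 did not pass, at 256 ± 14.0 in serum-starved and 238 ± 80.1 in control cells, and Ifitm5 was not tested. Ifitm10 fell to 0.723 ± 0.258, against 6.75 ± 0.506 in control cells. Whether interferon induces Ifitm10 in these cells was not tested. Plscr1, a phospholipid scramblase induced by interferon, fell 2.69-fold (adjusted p = 6.77e-05). Both families have near-identical copies, so their values are uncertain where reads were shared.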

How the data were processed

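RNA of 6 libraries was depleted of ribosomal RNA and read from random primers, per the labels' protocols. The authors deposited 1 table per library. The deposited values carry no unit in the file headers and are treated here as FPKM. They are not whole and their totals differ, but this does not settle the unit, so scaling for length is an assumption. The tools named per the submitters' processing notes are HISAT2 and StringTie, bcl2fastq 2.0, and also limma and DESeq2, and the build is mm10, a mouse build, although gene identifiers are rat ones (15927 of 17093, 93.2%, are in the GRCr8 table, as are all 41 members). The build of the values is thus unsettled, and coordinates refer to GRCr8 promoter sequences alone. Use of strand and division of shared reads are not given in the sources used here, so near-copies and antisense partners are uncertain. Values rounded to 0.01 are too coarse to recover reads, and no counting interval is given.

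Values were analysed as log2(value + 1) in limma 3.58.1 (R 4.3.3), using its intensity trend, treatment as the only term, both groups in the fit and Benjamini-Hochberg adjustment over the 11493 genes that reached 1 in 3 or more libraries. The smallest two-sided p of an exact permutation test of 3 against 3 libraries is 0.1. The fit was tested on simulated data. Alternatives were a pseudocount of 0.1, no filter, a filter at 5, equal totals, median-of-ratios and quantile scaling, the replicate number as a block, no trend, and each library left out; for promoters, a motif longer by 1 base and the 250 bases before the start alone. Promoter sequences are credited to RefSeq (GRCr8). Joins and plots used Python 3.11.15, pandas 2.3.3, numpy 2.4.6 and matplotlib 3.10.9. The members, lists and rules were chosen with earlier results of these data known. Every member is named. From each list around them, up to 4 called genes of largest change with groups apart are named. Csf1r, Adgre1, Cd14, Cd68, Laptm5, Acan, Pax1, Col1a1, Thy1, Dcn, Egfl7, Hprt1, Jak1, Socs1, Slfn5, Slfn13, Ube2l6, Uba7 and Cgas were added after their values were seen. So were Cish, Pias1, Pias2, Pias4, Ptpn2, Ptpn11, Ifitm2, Ifitm3 and Ifitm5. The markers Krt8, Sox9, Foxf1, Car3, Car12, Cdh2, Col1a2, Col3a1, Mkx, Scx, Pdgfra and Lum were added in the same way. A withheld item is not reported here.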

Additional observations from a re-analysis of the deposited data

How the results depend on the processing

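Of the 22 interferon genes called, 17 kept their direction and call in every setting in which they were tested, and Dtx3l, Eif2ak2, Ifnar1, Ifngr2 and Irf3 lost it in at least 1, with values beside each result. With no filter on low values 5 members were lower, beside 21.5% of all genes. The median log2 change of the 40 members then tested was 0.216. Equal totals gave a median of 0.477 and 16 changed genes of the sensing list; this scaling raises the serum-starved libraries relative to the controls, and the median of all genes under it is 0.201, against 0.0294 as deposited. Leaving out 1 library gave 17 to 24 changed members, beside 52.5% to 59.5% of all genes called, against 61.1% with all 6 libraries. Signs turned for genes that did not pass: Irf5 was 0.0518 and Ifi35 0.109 with equal totals, both below that median of all genes. With 1 library left out, Irf1 lay between -0.0778 and 0.153 (below 0 without serum-starved replicate 3 or control replicate 2) and Ifi35 between -0.184 and 0.0773 (above 0 without control replicate 3); these values lie near 0. The response element core stood in 16 of 33 promoters before the start site alone, and its longer form in 17, against 3.92% of all windows. The replicate block left 19 members higher and 3 lower, with 6801 of 11493 genes called. Same-numbered libraries did not deviate together (correlations of 0.0367, -0.162 and 0.101 for numbers 1, 2 and 3), so the numbers were not taken as pairs. The unknown depth and the values near 0 limit what can be said of the 10 untested genes.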
